A study of Mus musculus with 20 samples.

Results

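Dlx1, Dlx2, Dlx5, Dlx6, Lhx6 and Sp9, the transcription factors of the forebrain GABAergic lineage examined here, are 6 of the 48709 genes counted in RNA from adult mouse hippocampus. They were chosen by gene symbol, around Dlx1, which is among the genes the study names in a co-expression module built on these same 20 samples and picked for its association with exposure. The values of Dlx1 are therefore a description with no test, while the other 5 genes were tested with all genes in the fit.

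The study asked how exposure before birth to urban nano-sized particulate matter (nPM) marks the adult hippocampus. Pregnant mice, labelled C57BL/6 and in the paper C57BL/6J, breathed nPM or filtered air for 5 hours a day on 3 days a week from gestational day 2, at a level that the sample labels give as 300 mg/m3 and the paper as 300 μg/m3. Total RNA came from the right hippocampus of 5 offspring in each of 4 groups. The control females (filtered air, labelled Ctrl) were 17.71 to 18.29 weeks old and the nPM females 18 to 18.29 weeks. The control males were 18.57 to 19.14 weeks old and the nPM males 18.86 to 19.14 weeks, so that sex and age cannot be told apart. Each library is 1 animal, and the paper names 5 litters per exposure without saying which animal came from which, so that animals may share a litter. According to the paper, the males of the study also received a label of dividing cells before tissue was taken, which is a further difference that goes with sex. Libraries were depleted of ribosomal RNA and held between 19092067 and 38663408 counted reads, with a median of 29468930.

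As background, DLX proteins are homeodomain transcription factors switched on in the ganglionic eminences of the embryo, where they drive progenitors toward GABAergic neurons and act on genes such as Gad1 and Gad2. LHX6, a LIM-homeodomain factor, directs the later fate of interneurons born in the medial ganglionic eminence (MGE), which become somatostatin and parvalbumin cells of cortex and hippocampus, whereas SP9 is a zinc-finger factor of neurons from the lateral and medial eminences. The same eminences also give rise to neurons of the striatum, the septum and the olfactory bulb, and a few of these factors stay on in mature neurons.

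The libraries carried the markers of hippocampus. Levels in RPKM, which are reads scaled to exon length and library size, averaged 94.3 for Dkk3, 74.3 for Neurod6 and 21.7 for Cpne4, the most abundant of the 9 CA field markers, and 27.2 for C1ql3, 20.7 for Calb1 and 16.2 for Stxbp6 among the 8 dentate granule neuron markers. GABAergic neurons were well represented, with Gad1 at 42.0 ± 5.70 RPKM (SD, n = 20) and Sst at 78.3 ± 15.9.

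Some libraries stood apart in markers of neighbouring tissue. The 15 striatal projection neuron markers, summed, reached 721 CPM (counts scaled to library size with factors from the trimmed mean of M values, TMM) in nPM female 1, against at most 256 in any other sample. The 14 choroid plexus markers ran from 265 CPM in control male 3 to 14056 CPM in nPM female 1. Control male 4, with 12437 CPM, came next. Ttr, which codes for transthyretin, was the most abundant of them. Some values further on are also given without nPM female 1.

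On the mouse build GRCm38, the DLX genes lie in tail-to-tail pairs. Dlx1 (ENSMUSG00000041911.3, chr2:71528113-71533981, plus strand) and Dlx2 (ENSMUSG00000023391.8, chr2:71543408-71546754, minus strand) are 9427 bases apart. On chromosome 6, Dlx6 (ENSMUSG00000029754.13, chr6:6863334-6868568, plus strand) and Dlx5 (ENSMUSG00000029755.10, chr6:6877805-6882085, minus strand) are separated by 9237 bases. Chromosome 2 also holds Sp9 (ENSMUSG00000068859.5, chr2:73271925-73284706, plus strand) and Lhx6 (ENSMUSG00000026890.19, chr2:36081953-36105408, minus strand). Each of the 6 passed the filter on low counts, as did 19797 of all genes.

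Antisense transcripts cover several of these genes. Dlx1as overlaps all 5869 bases of Dlx1, Dlx6os1 all 5235 bases of Dlx6, and the last 1602 bases of Sp9 lie under Cir1, a corepressor gene on the other strand. Since the strand setting of the read counting is not stated, reads of a gene and of its antisense partner cannot be told apart from the files alone.

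Promoters are shown for Dlx2 and Sp9, which each varied with Dlx1 over the samples, and for Lhx6, which did not, as described further on. Of the 6 genes, 4 matched the set of RefSeq promoters used here (GRCm38.p6), all but Dlx5 and Dlx6. The window of Dlx1 lies in its own exon and is not shown. Of 3 entries for Lhx6, the first is shown, entry 2 lies in an exon, and entry 3 is left out as a start further inside the gene. The bases before the listed start are chr2:71546755-71547004 (minus strand) for Dlx2, chr2:73271676-73271924 (plus strand) for Sp9 and chr2:36105409-36105658 (minus strand) for Lhx6, each written 5′ to 3′ on the gene's strand.

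In these windows, capitals mark matches on either strand to GGGCGG (the GC box), CCAAT (the CCAAT box) or CAGCTG (an E-box), which were chosen after the sequences had been seen.
Dlx2: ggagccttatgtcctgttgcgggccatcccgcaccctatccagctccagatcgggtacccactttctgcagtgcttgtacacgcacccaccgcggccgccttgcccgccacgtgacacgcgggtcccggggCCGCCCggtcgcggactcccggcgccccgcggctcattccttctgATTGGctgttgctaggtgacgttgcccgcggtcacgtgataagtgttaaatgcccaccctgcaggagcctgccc
Sp9: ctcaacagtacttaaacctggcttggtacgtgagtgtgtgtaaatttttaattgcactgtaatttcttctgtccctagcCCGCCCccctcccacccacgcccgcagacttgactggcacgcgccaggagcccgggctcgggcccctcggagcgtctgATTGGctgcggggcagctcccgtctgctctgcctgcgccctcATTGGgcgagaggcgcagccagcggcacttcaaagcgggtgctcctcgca
Lhx6: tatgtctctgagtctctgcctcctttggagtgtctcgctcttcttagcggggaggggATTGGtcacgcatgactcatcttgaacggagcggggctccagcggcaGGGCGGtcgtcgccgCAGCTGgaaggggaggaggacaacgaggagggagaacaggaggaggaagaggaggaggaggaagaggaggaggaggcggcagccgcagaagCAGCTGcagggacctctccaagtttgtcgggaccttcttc

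Each of the 3 windows shown held 1 match to GGGCGG, which 32.7% of 32851 promoters of 250 bases contain. The CCAAT box, found in 33.8% of promoters, matched at 1 place in the Dlx2 window, at 1 in that of Lhx6 and at 2 places in that of Sp9. CAGCTG, present in 13% of promoters, matched at 2 places in the Lhx6 window alone among these 3. Other forms of E-box, such as CACGTG in the Dlx2 window, were not searched for or marked. TAATTA, a core that homeodomain proteins bind and 4.84% of promoters contain, was also searched on both strands and had 0 matches in these windows. No match overlapped another, and a match describes the letters, not a bound site. In the windows not shown, Dlx1 had 0 matches to any of these motifs, entry 2 of Lhx6 had 1 to GGGCGG alone, and entry 3 had 1 to CCAAT alone.

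Compared per length, all 6 genes were expressed at low levels. Mean RPKM over the 20 samples (± SD) was 2.17 ± 0.621 for Dlx1, 1.61 ± 0.310 for Lhx6 and 1.41 ± 0.522 for Dlx6. It was 0.619 ± 0.201 for Dlx5, 0.509 ± 0.191 for Sp9 and 0.495 ± 0.175 for Dlx2. Among neighbours in this order, only Dlx6 over Dlx5 held in 20 of 20 samples. Dlx1 stood above Lhx6 in 14 samples, Lhx6 above Dlx6 in 15, Dlx5 above Sp9 in 14 and Sp9 above Dlx2 in 9. The order of these neighbours thus changed between samples, and their differences were not tested.

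**Figure D1:**
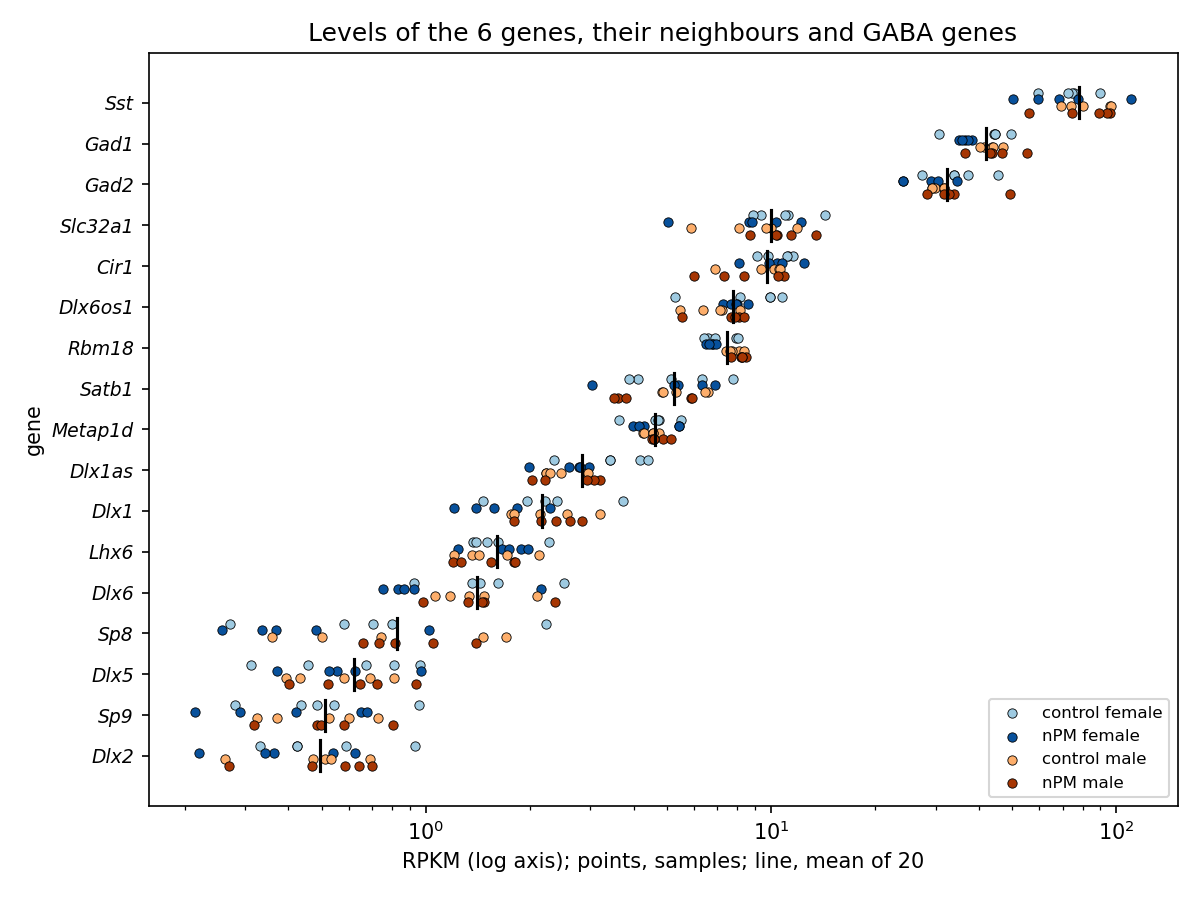
Level in RPKM (log axis) of the 6 genes beside neighbouring genes and genes of GABAergic neurons, with 1 point for each of 20 samples coloured by group and a line at the mean. The 6 genes average 0.495 to 2.17 RPKM, well to the left of Gad1 at 42.0.

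The counts behind these levels set their precision. Mean counts per library were 361 for Dlx1, 231 for Lhx6, 103 for Dlx6, 77.8 for Sp9, 43.8 for Dlx2 and 42.9 for Dlx5, and the lowest single value was 12 counts, for Dlx2 in nPM female 4. The spread within groups also holds differences between animals, which counting error leaves out. The within-group SD on the log2 scale was between 2.30 and 4.88 times the SD that counting alone gives at these means. It came to 0.59 for Sp9, 0.54 for Dlx2, 0.51 for Dlx5, 0.49 for Dlx6, 0.37 for Dlx1 and 0.31 for Lhx6, beside a median of 0.26 over all 19797 genes.

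Dlx1 opens the account of the DLX genes, the factors that set GABAergic identity. In control females 1 to 5, Dlx1 was at 7.52, 13.0, 19.6, 10.4 and 11.9 CPM, and in nPM females 1 to 5 at 11.9, 6.58, 9.86, 8.87 and 7.12 CPM. Control female 3 was the highest of all 20 samples and nPM female 2 the lowest. Among females, 4 of 5 nPM animals lay below the control median, but control female 1 was as low as they were and the groups overlapped. For the males, the values of Dlx1 were 9.96, 14.0, 10.1, 17.4 and 11.9 CPM in controls 1 to 5 and 9.65, 15.3, 11.9, 13.1 and 14.0 CPM in nPM animals 1 to 5. The ranges of the male groups overlapped, and control male 4 lay above every nPM male. Mean levels (± SD, n = 5) were 12.48 ± 4.47 CPM for control and 8.87 ± 2.16 CPM for nPM among females, and 12.7 ± 3.09 CPM for control and 12.8 ± 2.14 CPM for nPM among males.

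Dlx2, the tail-to-tail partner of Dlx1, had far fewer counts. Its CPM in control females 1 to 5 were 0.896, 1.68, 2.59, 1.20 and 1.20, and in nPM females 1 to 5 they were 1.72, 1.05, 1.53, 0.657 and 0.919. Control female 3 was again the highest of the 20 and nPM female 4 the lowest, and the female groups overlapped. Male controls 1 to 5 had 0.783, 1.36, 1.51, 1.99 and 1.56 CPM of Dlx2, and nPM males 1 to 5 had 1.33, 1.99, 0.784, 1.69 and 1.82. Control male 1 and nPM male 3 were the low animals of their groups, and the ranges of the male groups were nearly the same.

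Dlx5, which acts beside Dlx6 in the same cells, reached its highest level in 3 samples of different groups. Female controls 1 to 5 stood at 0.672, 1.83, 2.12, 1.502 and 1.02 CPM of Dlx5, and nPM females 1 to 5 at 2.12, 1.43, 1.25, 0.876 and 1.12. Control female 3 and nPM female 1 shared the top with nPM male 2, and control female 1 was the lowest of all. The control males 1 to 5 had 0.932, 1.57, 1.37, 1.86 and 1.01 CPM and the nPM males 1 to 5 1.17, 2.11, 0.929, 1.66 and 1.45. Both sexes showed ranges of nPM and control that overlapped over most of their length.

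By the order of the animals in CPM, Dlx6 gave the clearest split among the females. Its level was 2.08, 3.86, 5.83, 3.37 and 3.20 CPM in control females 1 to 5 and 4.96, 2.00, 2.05, 1.86 and 2.07 CPM in nPM females 1 to 5. On this scale the nPM females 2 to 5 lay below every control female, though control female 1 was only just above them, whereas nPM female 1 was higher than 4 of the 5 controls, so the groups overlapped. In RPKM, nPM female 5 (0.924) was just above control female 1 (0.922). Control males 1 to 5 were at 3.32, 3.54, 2.62, 5.04 and 2.88 CPM for Dlx6, and nPM males 1 to 5 at 2.31, 5.64, 3.22, 3.54 and 3.42 CPM. Control male 4 and nPM male 2 were high, and the other males of both groups were mixed.

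Sp9, the zinc-finger factor, had the widest spread of the 6. Control females 1 to 5 had 1.34, 2.45, 4.71, 2.17 and 2.71 CPM of Sp9 and nPM females 1 to 5 had 3.17, 1.10, 2.12, 3.56 and 1.38 CPM. Control female 3 was the highest and nPM female 2 the lowest of the 20. Unlike the DLX genes, Sp9 was high in nPM female 4. In males, Sp9 stood at 2.76, 3.71, 1.70, 3.06 and 1.93 CPM in controls 1 to 5 and at 1.59, 2.43, 2.56, 2.96 and 4.02 CPM in nPM animals 1 to 5. Control male 2 and nPM male 5 were the high males, and the groups overlapped.

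Lhx6, the factor of MGE-derived interneurons, followed another order. It was at 6.88, 10.9, 6.43, 7.68 and 6.67 CPM in control females 1 to 5, and at 5.75, 9.21, 9.44, 8.38 and 7.88 CPM in nPM females 1 to 5. Control female 2 was the highest of the 20, control female 3 was the lowest control female, and nPM female 1, high for Dlx5 and Dlx6, was the lowest female. Lhx6 in control males 1 to 5 was 10.7, 6.61, 8.60, 5.85 and 7.07 CPM, and in nPM males 1 to 5 it was 5.70, 6.09, 7.58, 8.79 and 8.62 CPM. Control male 1 was high and nPM male 1 the lowest of all. The groups overlapped in both sexes. From lowest to highest sample, Lhx6 changed by 1.92 fold, against 2.98 fold for Dlx1 and 4.29 fold for Sp9.

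**Figure D2:**
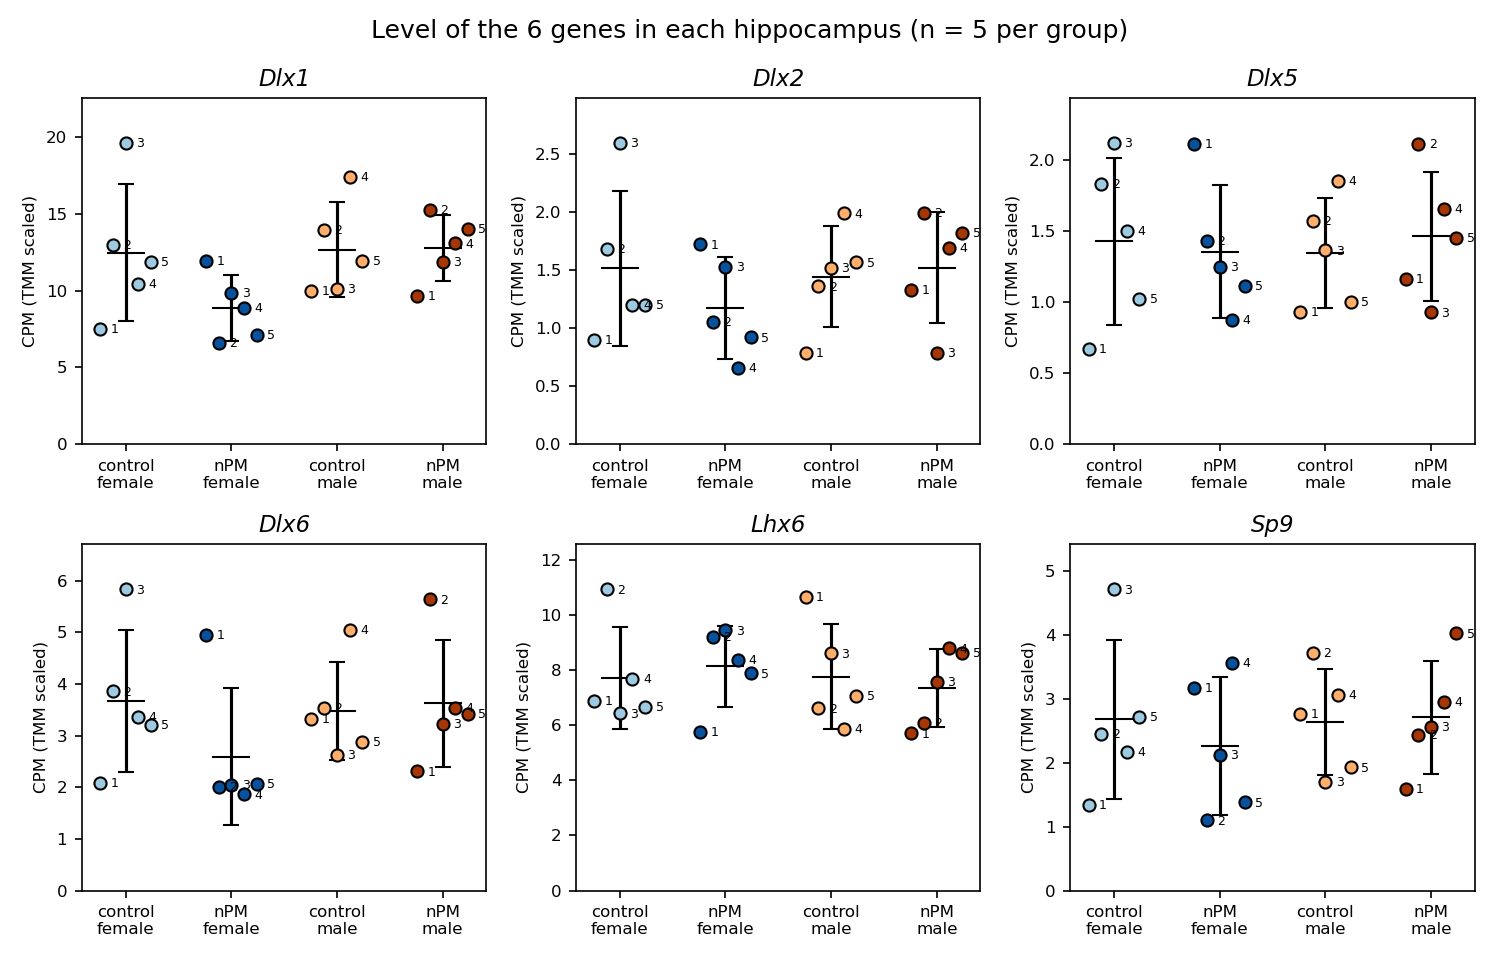
Level of each gene in CPM (TMM scaled, axis from 0) in 4 groups of 5 hippocampi, with 1 point per animal numbered as in the labels and bars for mean and SD. Control female 3 is the top point for Dlx1, Dlx2, Dlx5, Dlx6 and Sp9 but not for Lhx6, and the groups overlap in every panel.

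The comparison of nPM with filtered air in females asked whether exposure before birth shifted these genes in adult daughters. It called 0 of the 5 tested genes at p under 0.005 (limma-voom), where 0.0909% of all 19797 genes were called. Dlx6 had the largest estimate, a log2 fold change of -0.49 (SE 0.32, 95% interval -1.18 to 0.20, adjusted p = 0.9999, exact permutation p = 0.135), with 1 of 5 nPM females above the control median. Dlx2 stood at -0.28 (SE 0.33, 95% interval -1.001 to 0.43, adjusted p = 0.9999, exact permutation p = 0.357) and Sp9 at -0.25 (SE 0.38, 95% interval -1.07 to 0.56, adjusted p = 0.9999, exact permutation p = 0.571). Over the alternative settings, the lowest value of Sp9 in females was -0.54. For Dlx5 the log2 difference was 0.011 (SE 0.33, 95% interval -0.71 to 0.73, adjusted p = 0.9999, exact permutation p = 0.937), and for Lhx6 0.089 (SE 0.18, 95% interval -0.29 to 0.47, adjusted p = 0.9999, exact permutation p = 0.667). Dlx1, given without a test, had a log2 fold change of -0.42 (SE 0.25).

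Single animals weighed on these female values. Without nPM female 1, the log2 fold change of Dlx6 was -0.78 and that of Dlx1 -0.55, and the values of Dlx2, Sp9, Dlx5 and Lhx6 were -0.45, -0.44, -0.18 and 0.22. Without control female 3, those of Dlx2 and Sp9 shrank to -0.055 and -0.0072, those of Dlx5 and Lhx6 were 0.19 and 0.024, and those of Dlx6 and Dlx1 were -0.29 and -0.23. In a bulk sample, fewer cells that express a gene and less RNA of it per cell cannot be told apart.

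In males the same comparison called 0 of the 5 tested genes, beside 0.207% of all genes. The log2 fold changes were near 0: 0.024 (SE 0.30, 95% interval -0.62 to 0.67, adjusted p = 0.996, exact permutation p = 0.802) for Dlx2 and 0.088 (SE 0.27, 95% interval -0.49 to 0.67, adjusted p = 0.979, exact permutation p = 0.690) for Dlx5. Dlx6 stood at -7.06e-04 (SE 0.24, 95% interval -0.53 to 0.52, adjusted p = 0.9998, exact permutation p = 0.889), Sp9 at 0.028 (SE 0.27, 95% interval -0.56 to 0.62, adjusted p = 0.995, exact permutation p = 0.921) and Lhx6 at -0.041 (SE 0.18, 95% interval -0.43 to 0.35, adjusted p = 0.987, exact permutation p = 0.738). Dlx1 had -0.0049 (SE 0.17). The intervals of Dlx2, Dlx5, Dlx6 and Sp9 reach beyond 0.52 on the log2 scale on at least 1 side, so that shifts of this size lie within what 5 animals a group leave uncertain.

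Whether the exposure effect differed between the sexes was tested as the interaction, the effect in males minus that in females. It called 0 of the 5 genes, beside 0.217% of all. Dlx6 had 0.50 (SE 0.42, 95% interval -0.37 to 1.37, adjusted p = 0.987), Dlx2 0.32 (SE 0.46, 95% interval -0.64 to 1.28, adjusted p = 0.987) and Sp9 0.29 (SE 0.48, 95% interval -0.72 to 1.30, adjusted p = 0.987), all on the log2 scale. Dlx5 stood at 0.090 (SE 0.44, 95% interval -0.82 to 1.004, adjusted p = 0.994) and Lhx6 at -0.12 (SE 0.26, 95% interval -0.66 to 0.43, adjusted p = 0.991). For Dlx1, whose module was picked for its association with exposure and diverged by sex in the study, the value was 0.43 (SE 0.31) and belongs to what the choice drew on. Without nPM female 1, the interaction values were 0.78 for Dlx6, 0.48 for Dlx2, 0.47 for Sp9, 0.27 for Dlx5, -0.26 for Lhx6 and 0.55 for Dlx1. Without control female 3 they shrank to 0.30 for Dlx6, 0.087 for Dlx2, 0.043 for Sp9 and 0.24 for Dlx1, and Dlx5 turned to -0.089. Lhx6 was at -8.78e-04 without control male 1, and the highest interaction value of Sp9 over the alternative settings was 0.57. These comparisons share samples, so their values are not independent of each other.

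With both sexes in 1 fit adjusted for sex, 0 of 5 genes and 0.141% of all genes were called. The log2 fold changes ran from -0.22 (SE 0.21, 95% interval -0.65 to 0.21, adjusted p = 0.9998) for Dlx6 to 0.047 (SE 0.21, 95% interval -0.40 to 0.49, adjusted p = 0.9998) for Dlx5. Dlx2 was at -0.12 (SE 0.23), Sp9 at -0.10 (SE 0.24), Lhx6 at 0.012 (SE 0.13) and Dlx1, untested, at -0.19 (SE 0.16). Without nPM female 1 they were -0.31 for Dlx6, -0.034 for Dlx5, -0.18 for Dlx2, -0.17 for Sp9, 0.063 for Lhx6 and -0.23 for Dlx1. Without control female 3, the values of Dlx6, Dlx1 and Sp9 were -0.12, -0.096 and 0.011, and without nPM male 3 that of Dlx2 was -0.0024. Dlx5 fell to -0.069 without control female 1 and Lhx6 to -0.038 without control male 4.

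None of the exposure comparisons gave a gene of any kind with an adjusted p under 0.05 in limma-voom as fitted here. At an unadjusted p under 0.05 the counts were 393 genes in females, 848 in males, 751 for the interaction and 416 with adjustment for sex. At the adjusted threshold, edgeR gave 1 gene for the interaction, and DESeq2 gave 1 in males and 1 in females. For the interaction, limma-voom also gave 1 with age as a covariate and 1 without control male 5.

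Control males and control females differed widely in other genes but not detectably in these. Of all genes, 22.6% were called at p under 0.005 and 30.1% had an adjusted p under 0.05, while 0 of the 5 tested genes were called. Male over female log2 differences were 0.039 (SE 0.34, 95% interval -0.66 to 0.74, adjusted p = 0.943, exact permutation p = 0.944) for Sp9 and -0.022 (SE 0.31, 95% interval -0.67 to 0.62, adjusted p = 0.966, exact permutation p = 0.952) for Dlx5. Those of Dlx2, Dlx6 and Lhx6 were -0.0037 (SE 0.32), -0.020 (SE 0.28) and -0.015 (SE 0.18), and Dlx1 had 0.085 (SE 0.21) as a description. The sign of values this close to 0 depends on the tool and on single animals.

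**Figure D3:**
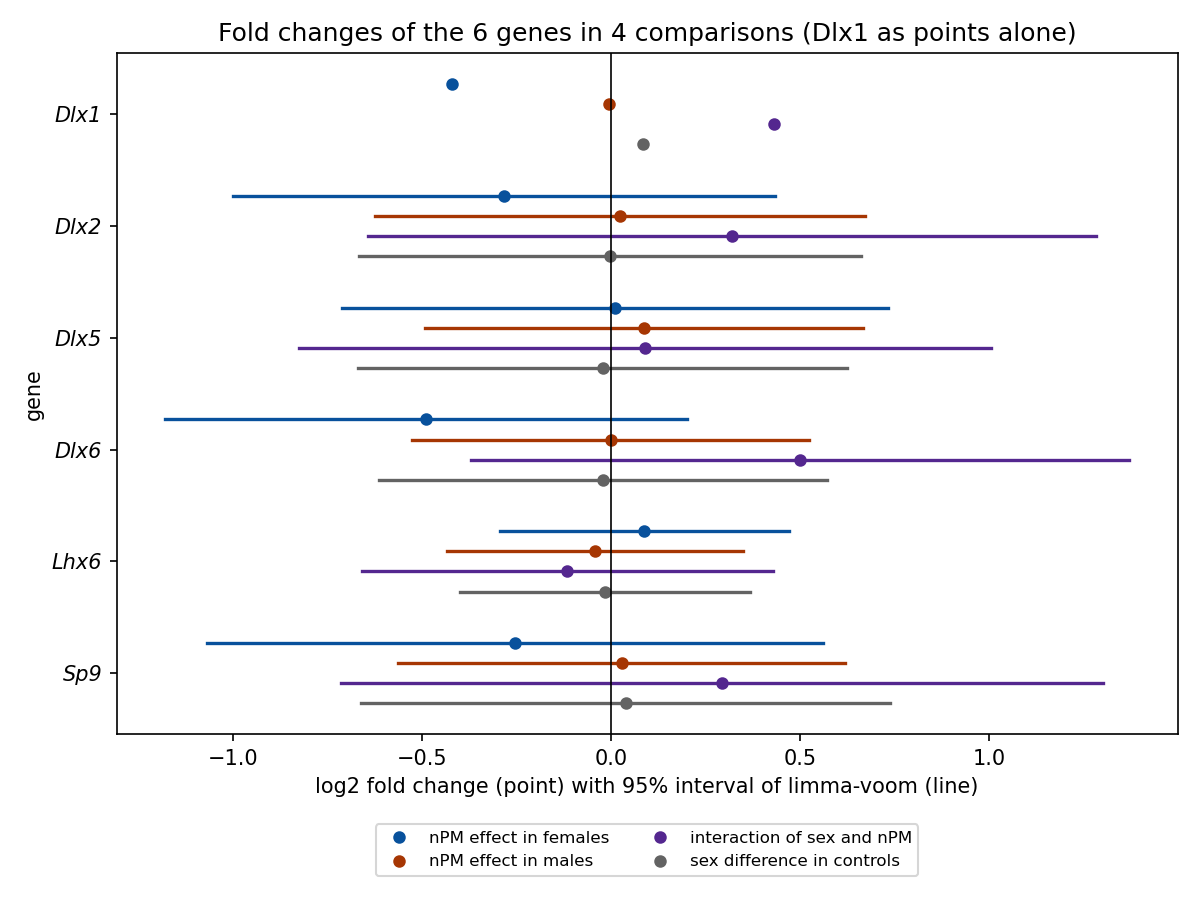
Log2 fold change of each gene in 4 comparisons (points) with the 95% interval from limma-voom (lines), where Dlx1 is drawn without an interval because it was chosen on these data. All intervals of the 5 tested genes include 0, and the female values of Dlx6, Dlx2 and Sp9 lie to the left of it.

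What the samples shared was an order that ran across the groups. Dlx1, Dlx2, Dlx5, Dlx6 and Sp9 tended to be high together and low together, least so Sp9 with Dlx2 and Dlx5, and Lhx6 was not part of it. This set of 5 was formed after the values were seen and is a description. Over the 20 samples, the 10 correlations among the 5 genes had a median r of 0.718 and ran from 0.366 to 0.878, and with the 4 group means removed the median was 0.734. The 5 correlations with Lhx6 ran from -0.383 to -0.131, with a median of -0.318 and of -0.285 with the group means removed. Leaving out any 1 sample kept the medians between 0.654 and 0.759 for the 5 genes and between -0.431 and -0.210 for Lhx6.

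The closest link joined Dlx1 to Dlx6, which lie on different chromosomes, with r = 0.878 (rho = 0.914, 0.849 with the group means removed, 0.864 without the 2 farthest samples). Within the tail-to-tail pairs, Dlx1 and Dlx2 had r = 0.744 (rho = 0.814, 0.733 with the group means removed, 0.755 without the 2 farthest samples), and Dlx5 and Dlx6 had r = 0.744 (rho = 0.788, 0.818 with the group means removed, 0.683 without the 2 farthest samples). Sp9 followed Dlx1 with r = 0.786 (rho = 0.708, 0.808 with the group means removed, 0.671 without the 2 farthest samples). Over all 20 samples, its weakest link among the 5 was to Dlx2, with r = 0.366 (rho = 0.380, 0.319 with the group means removed, 0.620 without the 2 farthest samples). Without the 2 farthest samples the link of Sp9 to Dlx5 was the weakest, with r = 0.404 (0.399 over all 20). Lhx6 against Dlx6 gave r = -0.383 (rho = -0.365, -0.353 with the group means removed, -0.322 without the 2 farthest samples). All were computed on log2 CPM over n = 20 and carry no p. Because the module of Dlx1 was built from co-expression in these samples, its likeness to other genes is partly what chose it.

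The order of the samples was similar for the 5 genes. Control female 3 was highest for all 5 and took place 16 of 20 for Lhx6. Control male 4 and nPM male 2 came next by the mean of the standardized values, and took places 18 and 17 for Lhx6. At the other end stood control female 1, nPM female 5 and nPM female 2. High and low animals thus occurred in both exposure groups, and 4 of the 5 nPM females were among the 8 samples with the lowest mean. The correlation of the mean of all 6 genes with the total count was 0.268, and 0.103 with the group means removed (rho = 0.229, 0.105 without the 2 farthest samples).

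The genes most like the mean of the 6, among 14672 with at least 50 counts on average, were Sox1ot, Ripor2, Sp8, Ankrd63, Ano2, Tmem158, Lzts1, Grk5, Sox1 and Inafm2, by Pearson's r over the 20 samples. Sox1ot, a long noncoding RNA gene that overlaps Sox1, led with r = 0.875 (rho = 0.808, 0.869 with the group means removed, 0.808 without the 2 farthest samples). Sp8, a zinc-finger factor related to Sp9, had r = 0.834 (rho = 0.812, 0.816 with the group means removed, 0.746 without the 2 farthest samples), and Sox1, a factor of neural progenitors, r = 0.790 (rho = 0.744, 0.770 with the group means removed, 0.715 without the 2 farthest samples). Over all ranked genes the median r was 0.0163. For the 10 genes named, r with Lhx6 alone ran from -0.536 (Sox1) to -0.0210 (Ripor2). Their r with the mean of the other 5 ran from 0.792 (Lzts1) to 0.936 (Sox1ot). Of these 10 names, 9 were also among the 10 highest after the group means were removed, where Grid2ip replaced Sox1, and 7 by rank correlation, with Glp1r and Pnoc among those that entered.

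Inafm2, and Igfbpl1 described further on, are named by the study in the same module as Dlx1, so their likeness is part of that choice. The full module is not listed in the files. In level, Sp8 went from 1.152 CPM in control female 1 to 9.76 CPM in control female 3, and Ano2, a calcium-activated chloride channel, from 1.21 CPM in nPM female 3 to 21.4 CPM in control female 3. Control female 3 was the highest sample for 9 of the 10 genes.

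**Figure D4:**
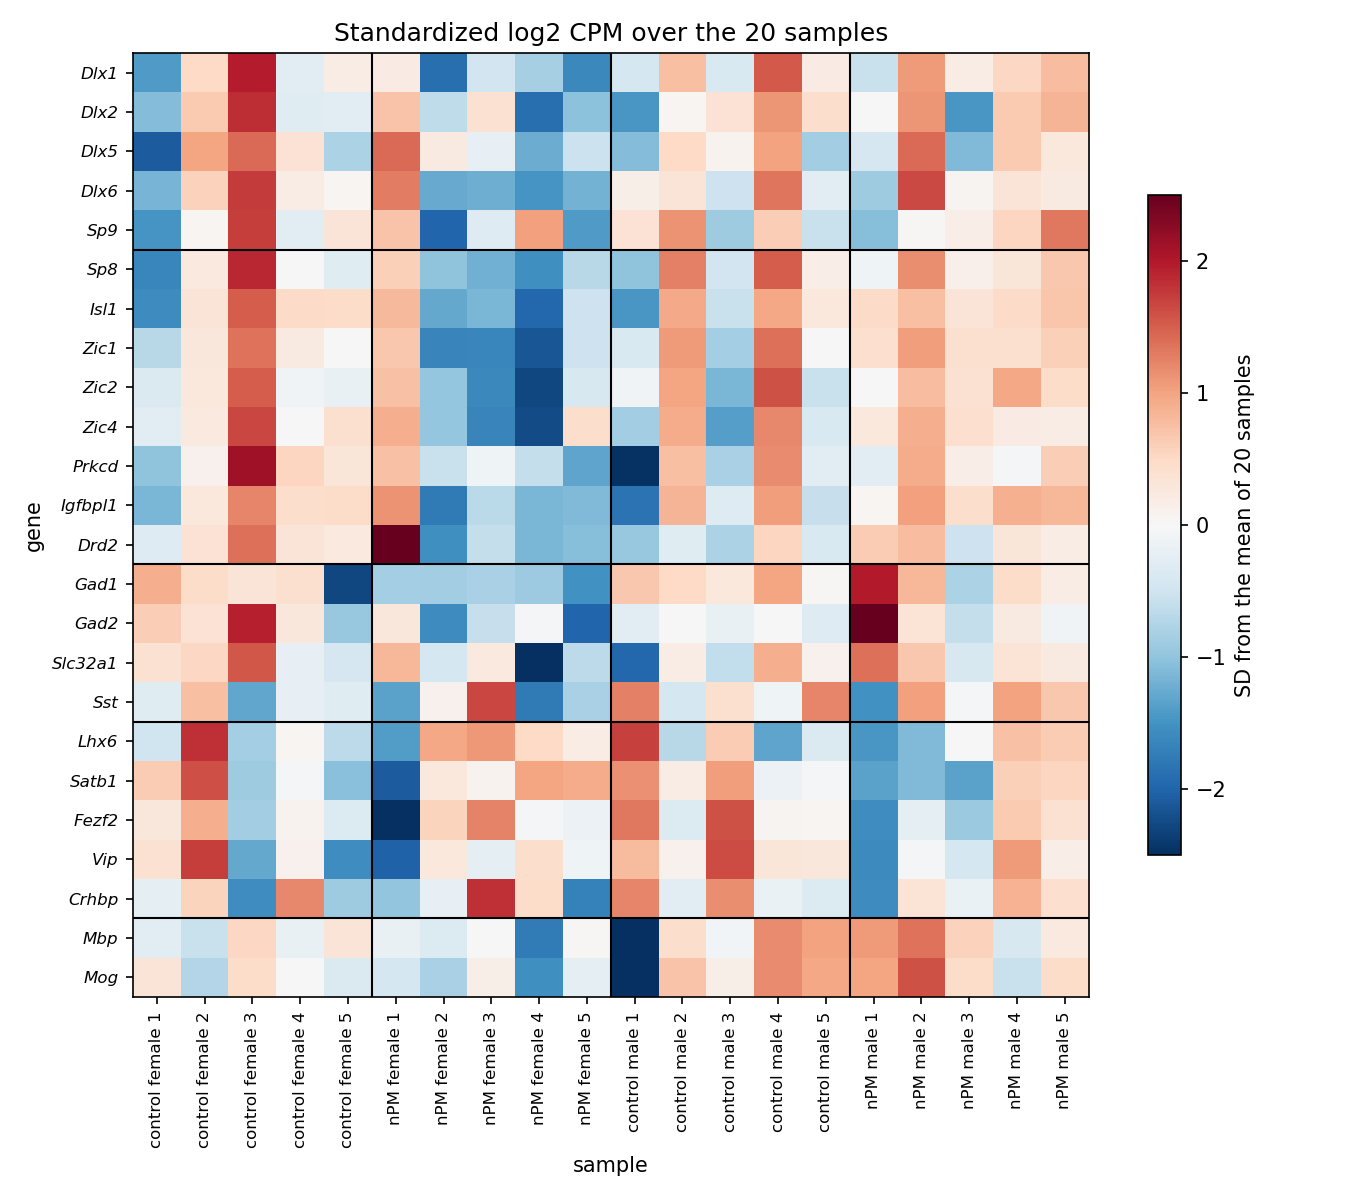
Standardized log2 CPM (colour, in SD from the mean of 20 samples) of the 6 genes and of marker genes, many of them picked after their values were seen, in 20 samples ordered by group, with lines between groups. The top block and the block from Sp8 to Drd2 are mostly red in control female 3, control male 4 and nPM male 2, where Lhx6 is blue.

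Septal and basal forebrain markers moved with the 5 genes more than any other list examined. Of the 10 markers 7 passed the filter, and 5 of these 7 (Zic1, Zic2, Zic4, Isl1 and Slc5a7) had r of at least 0.5 with the mean of the 5 genes, against 2.01% of all 19797 genes. The median r of the list was 0.759, beside -0.00523 for all genes. Its summed level had r = 0.883 (rho = 0.836, 0.870 with the group means removed, 0.835 without the 2 farthest samples) with the 5 genes and r = -0.510 (rho = -0.564, -0.499 with the group means removed, -0.624 without the 2 farthest samples) with Lhx6. Without nPM female 1, the r with the 5 genes was 0.882.

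Summed over the 10 markers, the level was 97.6, 151, 281, 152 and 152 CPM in control females 1 to 5 and 172, 96.1, 93.6, 93.3 and 113 CPM in nPM females 1 to 5. It was 122, 195, 94.97, 224 and 121 CPM in control males 1 to 5 and 123, 199, 153, 145 and 155 CPM in nPM males 1 to 5. Control female 3, control male 4, nPM male 2 and control male 2 were the highest, and nPM females 2 to 4, control male 3 and control female 1 the lowest.

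Trpc4, a channel that hippocampal neurons also express, was the most abundant gene of this list with 9.39 RPKM, followed by Zic1 with 8.49 and Zic2 with 3.87. Of the markers of cholinergic cells, Chat averaged 4.35 counts per library, Slc18a3 1.75 and Lhx8 1.30, all below the filter, whereas Slc5a7, the choline transporter, averaged 40.6 counts and had r = 0.773 (rho = 0.782, 0.758 with the group means removed, 0.782 without the 2 farthest samples) with the 5 genes. Ngfr and Isl1, which cholinergic cells share with others, also passed the filter, with r = 0.148 (rho = 0.214, 0.163 with the group means removed, 0.398 without the 2 farthest samples) and r = 0.824 (rho = 0.874, 0.803 with the group means removed, 0.759 without the 2 farthest samples). Isl1, Lhx8 and Zic1 also stand in other lists used here. The part of septal or basal forebrain tissue in the values of the 5 genes was not tested.

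Zic1, a zinc-finger factor of septum and medial forebrain singled out after its values were seen, shows the size of this. It was 20.4, 46.2, 115, 44.0 and 37.1 CPM in control females 1 to 5 and 64.0, 9.11, 9.27, 6.02 and 23.8 CPM in nPM females 1 to 5, with nPM females 2 to 4 lowest and control female 3 highest among females. Its r with the 5 genes was 0.789 (rho = 0.823, 0.774 with the group means removed, 0.781 without the 2 farthest samples). Of the 7 measured markers 0 were called in any of the 5 comparisons, beside 0.0909% to 0.217% of all genes for exposure and 22.6% for sex, shares at which so few genes tell little. The median log2 fold change of the list was -0.75 in females, nPM female 1 included, and 0.22 in males, beside 0.0038 and -0.0013 for all genes.

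**Figure D5:**
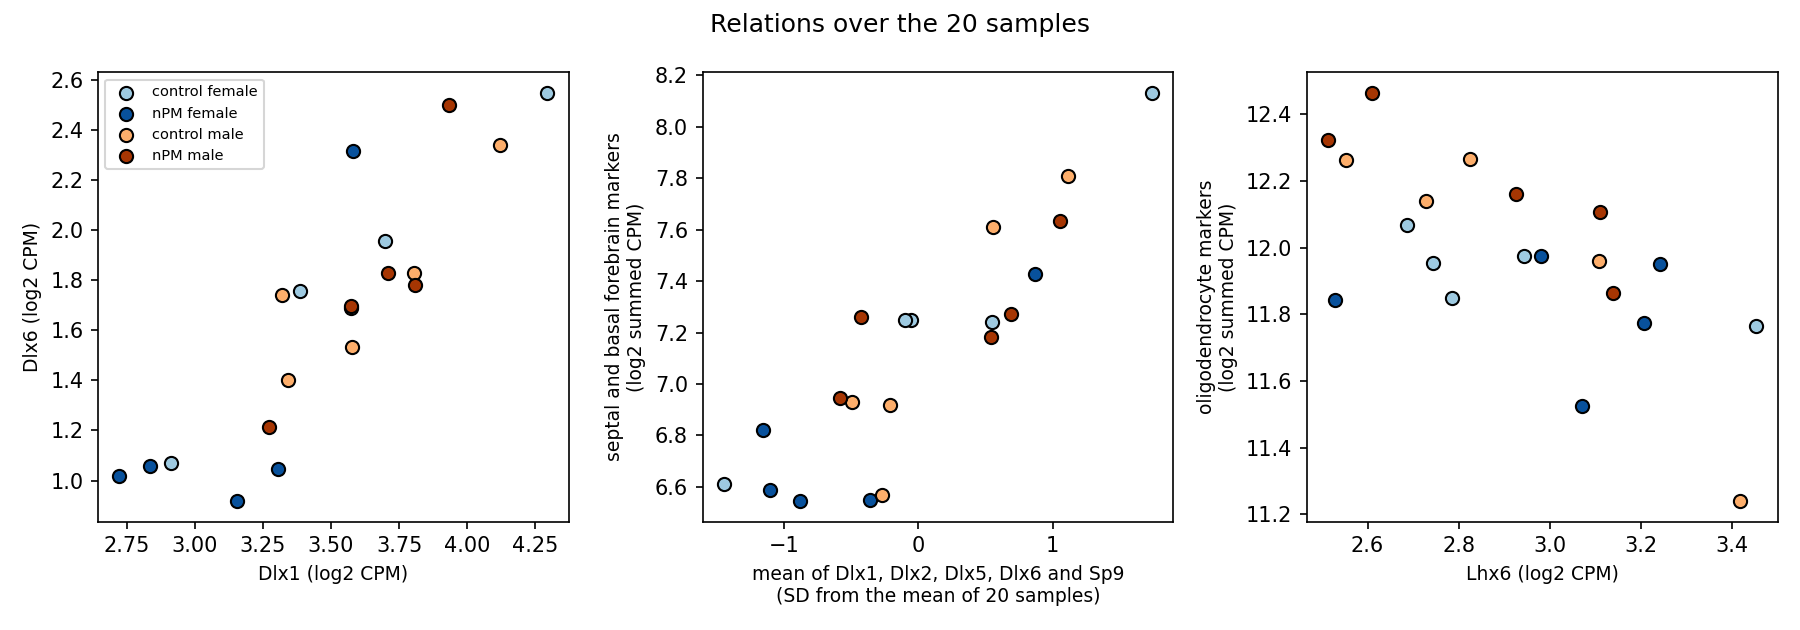
Relations over 20 samples, 1 point each, coloured by group: Dlx6 against Dlx1 (log2 CPM), the summed septal and basal forebrain markers against the mean of the 5 genes without Lhx6, and the summed oligodendrocyte markers against Lhx6. The left and middle clouds rise (r = 0.878 and 0.883) and the right one falls (r = -0.668).

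Striatal markers followed the 5 genes less closely. Of 15, 3 had r of at least 0.5, Drd2 and Six3 among them, and the median r was 0.325. The summed level gave r = 0.417 (rho = 0.642, 0.575 with the group means removed, 0.491 without the 2 farthest samples), and r = 0.648 without nPM female 1, the sample in which striatal markers stood apart. With Lhx6, 0 of the 15 had r above 0 and 4 had r of -0.5 or lower, the median was -0.353, and the summed level had r = -0.392 (rho = -0.316, -0.454 with the group means removed, -0.429 without the 2 farthest samples), or r = -0.274 without nPM female 1. Control females 1 to 5 had 207, 229, 226, 207 and 212 CPM in sum and nPM females 1 to 5 721, 203, 198, 183 and 209 CPM. The sums in control males 1 to 5 were 189, 205, 200, 244 and 203 CPM and in nPM males 1 to 5 186, 256, 234, 226 and 215 CPM. Penk, Ppp1r1b and Rasd2 were the most abundant, with 11.8, 11.03 and 8.78 RPKM. Whether striatal tissue contributes to Dlx5 and Dlx6 in nPM female 1 was not tested.

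Lhx6 instead moved with the summed level of markers of the interneurons it specifies, though not with these alone. The 11 markers of MGE-derived interneurons had a summed level with r = 0.772 (rho = 0.786, 0.8001 with the group means removed, 0.716 without the 2 farthest samples) against Lhx6, and r = -0.419 (rho = -0.400, -0.453 with the group means removed, -0.322 without the 2 farthest samples) against the 5 genes. Of the 11 genes, 10 had r above 0 with Lhx6 and 3 (Satb1, Crhbp and Sst) had r of at least 0.5, as 4.01% of all genes did. The median r of the list with Lhx6 was 0.298, and with the 5 genes -0.0971. Satb1, a chromatin organizer that acts downstream of Lhx6 in somatostatin cells and is also expressed by other neurons, had r = 0.768 (rho = 0.764, 0.798 with the group means removed, 0.689 without the 2 farthest samples). Sst had r = 0.534 (rho = 0.580, 0.634 with the group means removed, 0.441 without the 2 farthest samples), and Pvalb r = 0.434 (rho = 0.341, 0.469 with the group means removed, 0.350 without the 2 farthest samples).

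The MGE markers summed to 459, 519, 367, 420 and 439 CPM in control females 1 to 5 and 327, 441, 495, 404 and 428 CPM in nPM females 1 to 5. The sums were 457, 378, 437, 358 and 430 CPM in control males 1 to 5 and 391, 343, 344, 465 and 438 CPM in nPM males 1 to 5. Control female 2, the highest sample for Lhx6, was also the highest here, and nPM female 1 was the lowest. Per length, Sst, Npy and Pvalb were the most abundant, with 78.3, 39.6 and 26.7 RPKM. In CPM, the scale of the sum, Satb1 was above Sst in every sample. Satb1 was at 148 CPM in control female 2 and 55.9 CPM in nPM female 1, and Sst at 54.0 and 34.5 CPM. The part of Satb1 in the r of the sum with Lhx6 was not tested.

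Neocortical markers also moved with Lhx6. Of 11, 4 had r of at least 0.5, Fezf2, Tbr1 and Cux2 among them, and the median r was 0.414, beside 0.0182 for all genes. Fezf2, a factor of deep-layer neurons that is also present in hippocampus, had r = 0.771 (rho = 0.821, 0.8292 with the group means removed, 0.739 without the 2 farthest samples). The summed level had r = 0.512 (rho = 0.531, 0.521 with the group means removed, 0.428 without the 2 farthest samples), and r = 0.431 without nPM female 1. It was 410, 418, 219, 257 and 195 CPM in control females 1 to 5 and 160, 326, 251, 314 and 410 CPM in nPM females 1 to 5. In control males 1 to 5 it was 317, 303, 395, 304 and 267 CPM, and in nPM males 1 to 5 270, 202, 171, 336 and 290 CPM. Control female 2 was the highest and nPM female 1 the lowest sample, as for the MGE markers. Tshz2, Lamp5 and Rprm were the most abundant, with 10.8, 8.79 and 8.18 RPKM.

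Oligodendrocyte markers went the other way. All 8 had r below 0 with Lhx6 and 7 had r of -0.5 or lower, as 5.86% of all genes did, with a median r of -0.634. Their summed level gave r = -0.668 (rho = -0.621, -0.680 with the group means removed, -0.540 without the 2 farthest samples), and r = -0.750 without nPM female 1. With the 5 genes, all 8 had r above 0, with a median of 0.358, and the summed level had r = 0.378 (rho = 0.350, 0.291 with the group means removed, 0.384 without the 2 farthest samples). The sums were 3689, 3482, 4294, 4023 and 3970 CPM in control females 1 to 5 and 3672, 3501, 3960, 2944 and 4028 CPM in nPM females 1 to 5. They came to 2418, 4514, 3982, 4912 and 4922 CPM in control males 1 to 5 and 5122, 5652, 4581, 3731 and 4408 CPM in nPM males 1 to 5. Control male 1, with much Lhx6, had the least and nPM male 2, with little, the most. Mbp and Mobp, genes of myelin, were among the most abundant with 152 and 121 RPKM. The part of neocortical or white matter tissue in the values of Lhx6 was not tested.

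Among 19 other transcription factors of the interneuron lineages, 13 passed the filter and 0 were called in any of the 5 comparisons, beside 0.0909% to 0.217% of all genes for exposure and 22.6% for sex. Sp8 and Isl1 had r of at least 0.5 with the 5 genes, with 0.910 and 0.824, and the median was 0.0736. Isl1, a LIM-homeodomain factor of striatal and cholinergic neurons, was at 3.93 CPM in control female 3 and at 0 in nPM female 4, where a count of 0 allows up to 0.164 CPM. Gsx1, Gsx2, Nkx2-1, Lhx8, Dlx3 and Dlx4 were below the filter, with at most 6.15 counts on average. The most abundant were Zeb2, Prox1 and Satb1 with 25.8, 12.8 and 5.24 RPKM. Prox1 is also a marker of dentate granule neurons, which make up much of this tissue.

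The 11 known targets of DLX or LHX6 all passed the filter, and 0 were called, beside 0.0909% to 0.217% of all genes for exposure and 22.6% for sex. Their median r with the 5 genes was 0.224, and 1 of the 11, Slc32a1, which loads GABA into vesicles, reached 0.5 with r = 0.570 (rho = 0.598, 0.531 with the group means removed, 0.595 without the 2 farthest samples). Gad1 and Gad2, the enzymes that make GABA, had r = 0.256 and 0.413 (rho = 0.248 and 0.400), or 0.0467 and 0.301 with the group means removed and 0.388 and 0.371 without the 2 farthest samples. Against Lhx6, the median r of the 11 targets was -0.0579, with Sst at r = 0.534. Slc32a1 had r = -0.549 with Lhx6 (rho = -0.547, -0.542 with the group means removed, -0.581 without the 2 farthest samples). Gad1 ran from 233 CPM in control female 5 to 418 CPM in nPM male 1, neither of which was extreme for the DLX genes. The sum of the targets ran from 629 CPM in control female 5 to 910 CPM in nPM male 1.

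For the other lists of GABAergic cells, the 7 core genes of GABAergic neurons had a median r of 0.127 with the 5 genes and -0.0324 with Lhx6. Of 13 markers of interneurons from the caudal ganglionic eminence (CGE), 1, Ndnf, had r of at least 0.5 with the 5 genes (0.701), and 1, Vip, with Lhx6 (0.690), and the medians were -0.112 with the 5 genes and 0.251 with Lhx6, the last near that of the MGE list. Another CGE marker, Sncg, went the other way from Lhx6, with r = -0.657 (rho = -0.713, -0.654 with the group means removed, -0.720 without the 2 farthest samples). The summed CGE level against Lhx6 had r = 0.400 (rho = 0.295, 0.714 with the group means removed, 0.221 without the 2 farthest samples). Cck, Id2 and Cnr1 led the CGE list with 121, 55.4 and 41.7 RPKM, and pyramidal cells express Cck too.

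Of 12 immature neuron markers, 3 had r of at least 0.5 with the 5 genes, namely Igfbpl1 (0.857), Sp8 and Eomes (0.598), and the median r was 0.172 with the 5 genes and -0.166 with Lhx6. Tubb3, Stmn1 and Nrep were the most abundant with 84.0, 83.1 and 18.1 RPKM. Of the 143 list genes past the filter, Nrep was the only 1 called for exposure, beside 0.0909% to 0.217% of all genes. It was lower in nPM males by a log2 fold change of -0.57 (SE 0.15, adjusted p = 0.963, exact permutation p = 0.0238), with 0 of 5 nPM males above the control median. It was not called in 1 fit of all 4 groups, nor without control male 2, control male 4, nPM male 3 or nPM male 5.

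Among 9 thalamic markers, Prkcd (0.809) and Zic1 had r of at least 0.5 with the 5 genes and Rgs16 had -0.541, and the median was 0.0427 with the 5 genes and -0.182 with Lhx6. Their summed level, further from 0 than the median, had r = 0.484 (rho = 0.377, 0.360 with the group means removed, 0.464 without the 2 farthest samples) against the 5 genes and r = -0.479 (rho = -0.453, -0.469 with the group means removed, -0.596 without the 2 farthest samples) against Lhx6. Prkcd is also made by septal and amygdalar neurons. Slc17a6, Zic1 and Rora led that list with 9.20, 8.49 and 8.14 RPKM. The 14 choroid plexus markers, led by Ttr with 1342 RPKM, had a median r of 0.399 with the 5 genes and -0.488 with Lhx6. For the 8 dentate granule neuron markers it was 0.212 with the 5 genes and -0.369 with Lhx6, and for the 9 CA field markers -0.0843 with the 5 genes and 0.154 with Lhx6. Glial lists gave 0.00416 with the 5 genes and -0.128 with Lhx6 for 8 astrocyte markers, led by Slc1a2 with 330 RPKM, and 0.0782 with the 5 genes and -0.183 with Lhx6 for 8 microglia markers. The summed astrocyte level, unlike the median, rose with Lhx6, with r = 0.533 (rho = 0.526, 0.553 with the group means removed, 0.581 without the 2 farthest samples). Slc1a2 alone made up most of that sum, with 3295 of 4681 CPM in control male 4 and 4916 of 6293 CPM in nPM female 3. Of the 8 astrocyte markers, 3 had r above 0 with Lhx6. The summed CA field level had r = 0.404 with Lhx6 (rho = 0.421, 0.423 with the group means removed, 0.621 without the 2 farthest samples). The summed choroid plexus level went the other way from Lhx6, with r = -0.515 (rho = -0.501, -0.540 with the group means removed, -0.494 without the 2 farthest samples) and r = -0.445 without nPM female 1.

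Between control males and control females, 13 of the 143 list genes past the filter were called, where 22.6% of all genes were. Those higher in males included Cck (0.44 on the log2 scale), Id2 (0.61), Sox4 (0.49), Rprm (0.95), the astrocyte genes Aqp4 (0.46), Gja1 (0.33) and S100b (0.24), and the microglia genes P2ry12 (0.65) and Aif1 (0.48). Lower were the potassium channel gene Kcnc1 (-0.53), Adarb2 (-0.41) and Plekhg1 (-0.39). Adjusted p ran from 0.000202 for P2ry12 to 0.0221 for Rprm. For each of the 13, all 5 control males lay on the same side of the control female median. Of 26 alternatives, the call was lost in 17 for Rprm, 16 for Cck, 13 for Aqp4, 8 each for Plekhg1 and S100b, 5 for Adarb2 and 3 for Aif1.

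Of the neighbouring transcripts, Dlx1as averaged 2.83 RPKM, with r = 0.439 (rho = 0.531, 0.562 with the group means removed, 0.347 without the 2 farthest samples) against Dlx1. Dlx6os1, also known as Evf2, a noncoding RNA that regulates DLX genes in the embryo, was far above Dlx6 with 7.76 RPKM, and had r = 0.278 (rho = 0.167, 0.362 with the group means removed, 0.327 without the 2 farthest samples) against it. Cir1, with 9.76 RPKM, had r = 0.0727 (rho = 0.162, 0.148 with the group means removed, 0.0864 without the 2 farthest samples) against Sp9. Dlx6os2, inside Dlx6 on the other strand, averaged 6.55 counts, with r = 0.00587 (rho = -0.0662, 0.480 with the group means removed, 0.0138 without the 2 farthest samples) against Dlx6.

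Within 20 kb of the 6 genes also lie Metap1d near Dlx1 and Dlx2, Gm44094 and a short entry of Dlx6os1 near Dlx6, and Morn5, Gm43764 and Rbm18 near Lhx6, while Gm27953 lies within Lhx6. Metap1d had r = 0.0682 (rho = 0.153, 0.0353 with the group means removed, 0.131 without the 2 farthest samples) with Dlx1, and Rbm18 r = 0.201 (rho = 0.188, 0.551 with the group means removed, 0.0311 without the 2 farthest samples) with Lhx6. Gm43764, Gm27953 and the short entry of Dlx6os1 were below the filter and were not tested. None of the other neighbours was called in an exposure comparison, beside 0.0909% to 0.217% of all genes. At these shares so few genes tell little. Gm44094, a transcript 7083 bases from Dlx6 with unknown function, was lower in control males than in control females by a log2 difference of -2.31 (SE 0.46, adjusted p = 0.00124), in a comparison that called 22.6% of all genes.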

How the data were processed

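RNA of 20 hippocampi, 5 per sex and exposure, was sequenced by the authors from RiboZero Gold libraries. The count values were deposited as whole numbers per gene, made by the authors with FastQC, Trimmomatic, HISAT2 on mm10 and featureCounts 1.5.0-p3 on Gencode M11, with the strand setting and the rule for multi-mapped reads not stated. The mean RPKM per gene was deposited by the authors, and RPKM recomputed here from the counts and lengths differ from it by at most 4.91e-11. The exon length of each gene in bases is given per the file headers.

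Depth was 19092067 to 38663408 counts per sample, with a median of 29468930. Genes past filterByExpr over the 4 groups (19797 of 48709) were fitted with limma-voom (limma 3.58.1, edgeR 4.0.16 TMM factors, R 4.3.3) in 5 comparisons, with males and females fitted apart for the effect in each sex. A call is p under 0.005, and adjusted p are Benjamini-Hochberg over all genes. Single genes also had exact permutation tests between 2 groups of 5, for the exposure in each sex and for sex in controls (252 permutations, smallest p 0.00794). Alternatives were edgeR quasi-likelihood, DESeq2 1.42.0, RLE factors, no filter, sample quality weights, age as a covariate, the replicate number as a block, 1 fit of the 4 groups, and each sample left out. The scripts were tested on simulated data.

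The 6 genes and the 16 lists were chosen with earlier results of these data known. Named besides them are genes that overlap one of the 6 or lie within 20 kb, the 10 genes most like the mean of the 6 among those with a mean of at least 50 counts, the 3 most abundant genes of each list, list genes called in a comparison, and genes picked after their values were seen. Correlations use log2 CPM, and the 2 farthest samples are those farthest from the median of 1 variable: the mean of the 6 or 5 genes, Lhx6, the gene of the 6 beside a neighbour, the total count or, in a pair of the 6, the gene first in the alphabet. Dlx1 has no test because it was chosen on these samples. Some genes of the lists are not reported here.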

Additional observations from a re-analysis of the deposited data

Results flagged for a closer look

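Of 88 groups of 5 samples looked at, 5 held a highest or lowest sample whose gap to the next, divided by the range of the group, passed Dixon's critical value of 0.71, where chance gives about 1 group in 20.

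For Dlx6 on the log2 scale, nPM female 1 was the highest of the nPM females with a ratio of 0.898, at 4.96 CPM against 2.07 CPM for the next. The summed striatal markers gave 0.904 for the same sample, at 721 CPM against 209 CPM. Control female 5 was the lowest of its group for the summed DLX and LHX6 targets, with 0.818 and 629 CPM, and for the core genes of GABAergic neurons, with 0.753 and 1009 CPM. Control female 1 was the lowest of its group for the summed astrocyte markers, with 0.8 and 5197 CPM. No explanation was tested.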

How the results depend on the processing

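Under every alternative 0 of the 5 tested genes were called in each of the 5 comparisons. Of 696 recomputed log2 fold changes of the 6 genes, 102 changed sign, 92 of tested genes and the others of Dlx1, which has no test and moved by less than 1 SD within groups; the largest shift was 0.588 SD, for Dlx6 in females without nPM female 1. The reported values of the results that changed sign in tested genes lay between -0.10 and 0.090, and the cause was not tested.

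The number of genes at p under 0.005 moved by over 1.5 times in some settings. With DESeq2 it was 43 adjusted for sex, 113 in males, 55 in females and 89 for the interaction, and with edgeR 66 for the interaction. Without a filter on low counts, which adds genes, it was 71, 104, 75 and 149 in that order, and with sample quality weights 53 adjusted for sex and 44 in females. Leaving out 1 sample gave 17 to 47 adjusted for sex, 23 to 78 in males, 10 to 48 in females, 24 to 77 for the interaction and 3437 to 4787 for the sex difference. Apart from fewer samples, the cause was not tested.

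Sign changes by setting, on the log2 scale, were as follows. With edgeR they were Lhx6 -6.72e-04 adjusted for sex, Dlx6 0.054 in males, Dlx5 -0.052 in females, and Lhx6 0.0061 and Sp9 -0.025 between the sexes. With DESeq2 the same 5 were -0.0024, 0.049, -0.055, 0.0078 and -0.026. Quality weights gave -0.035 for Dlx2, 0.064 for Dlx6 and 0.054 for Lhx6 in males, -0.011 for Dlx5 in the interaction, and 0.13 for Dlx2, 0.068 for Dlx5 and 0.025 for Dlx6 between the sexes. Dlx1 changed sign in 8 settings in males and 2 between the sexes. Dlx6 in males was 0.0087 without the filter, 0.0011 with age as a covariate and 7.82e-04 in 1 fit of the 4 groups, where Dlx5 in females was -0.0014.

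With 1 sample left out in turn, the ranges that cross 0 were, adjusted for sex, -0.069 to 0.13 for Dlx5, -0.038 to 0.072 for Lhx6 and -0.20 to 0.011 for Sp9. In males they were -0.082 to 0.13 for Dlx1, -0.16 to 0.23 for Dlx2, -0.055 to 0.23 for Dlx5, -0.17 to 0.16 for Dlx6, -0.15 to 0.072 for Lhx6 and -0.14 to 0.21 for Sp9. Dlx5 ran over -0.24 to 0.19 in females and -0.089 to 0.33 in the interaction. Between the sexes the ranges were -0.077 to 0.28 for Dlx1, -0.16 to 0.23 for Dlx2, -0.27 to 0.16 for Dlx5, -0.20 to 0.18 for Dlx6, -0.13 to 0.11 for Lhx6 and -0.18 to 0.29 for Sp9.

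The labels number the replicates but state no pairing. With the replicate number as a block, the counts of calls were 20 adjusted for sex, 35 in males, 22 in females, 43 for the interaction and 4262 for the sex difference, with Dlx6 at 0.030 in males and Dlx5 at -0.017 in females. Of 20 pairs with the same number, 4 correlated best with their own number, and r ran from -0.364 to 0.224.

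Limits: 5 animals per group, 1 library each, of whole hippocampus; the litter of each animal is not stated. Sex goes with age and, per the paper, with a label of dividing cells given to males. The exact test cannot give a p under 0.00794. Dlx2 and Dlx5, with 43.8 and 42.9 counts per library on average, have the fewest counts, and Sp9 has the widest spread within groups. Dlx1 and the list of genes were chosen on these data, and the set without Lhx6 was formed from its values. Dissected tissue cannot be told from cells that belong to hippocampus, and antisense reads cannot be told from those of the genes.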
